A study of Mus musculus with 23 samples.

Results

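The genes described here are the ligand *Csf1* and 5 receptor genes of the colony-stimulating factor (CSF) family, *Csf1r*, *Csf2ra*, *Csf2rb*, *Csf2rb2* and *Csf3r*, taken by gene symbol from the 18876 genes of the count table. All 6 were found once each and all 6 passed the filter on low counts. Messenger RNA was sequenced from CD11b+ cells that were magnetically sorted from both hippocampi of female mice. Every mouse carried *Slc11a2*flfl and one copy of Cx3cr1Cre-ERT2, an inducible Cre recombinase driven from the Cx3cr1 locus, on a mixed 129S;C57BL/6J background. *Slc11a2* encodes the iron importer DMT1. Knockdown (*Slc11a2*KD) was induced at 5 to 6 months of age with 5 daily gavages of 4 mg tamoxifen, and Control mice were given 200 µL of corn oil in its place, so that drug and knockdown cannot be told apart. *APP/PS1* mice, which were hemizygous for transgenes that carry familial Alzheimer mutations and model amyloid deposition, were compared with WT littermates, and all cells were collected at 15 to 18 months. Control mice gave 6 WT and 6 *APP/PS1* samples, and *Slc11a2*KD mice gave 5 of each genotype. One further Control *APP/PS1* sample, library 10, was removed by the study as an outlier and enters only where it is named. The labels do not state how many mice gave each sample, and p-values measure the spread between these samples.

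CSF1 and interleukin 34 both bind CSF1R, a receptor tyrosine kinase on which microglia depend for survival and proliferation. The CSF2 (GM-CSF) receptor pairs the ligand-binding chain CSF2RA with the common beta chain CSF2RB, which signals through JAK2 and STAT5 and also serves the interleukin 3 and interleukin 5 receptors. Mice carry a second beta chain gene, *Csf2rb2*, whose product pairs with the interleukin 3 receptor. CSF3R binds CSF3 (G-CSF) and is best known for driving the production of neutrophils, and it is also detected in microglia.

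*Csf2rb* and *Csf2rb2* lie side by side on chromosome 15 and are near copies of each other, so the sequences below are given to show how far reads can tell them apart. Over 2626 aligned coding bases of their canonical GENCODE M39 transcripts on GRCm39, 2504 were identical (95.4%). The stretch of 90 bases with the most differences lies in exon 4 of both genes, at chr15:78223097-78223186 on the plus strand for *Csf2rb* and chr15:78178545-78178634 on the minus strand for *Csf2rb2*. Capitals mark the 16 bases that differ.
*Csf2rb*: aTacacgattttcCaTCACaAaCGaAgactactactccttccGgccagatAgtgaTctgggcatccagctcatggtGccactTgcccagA
*Csf2rb2*: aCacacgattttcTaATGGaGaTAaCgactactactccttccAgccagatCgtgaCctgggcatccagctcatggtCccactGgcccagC
The longest identical coding run, in exon 14 of both genes (chr15:78232777-78233018 and chr15:78168830-78169071), is 242 bases long.
*Csf2rb* and *Csf2rb2*: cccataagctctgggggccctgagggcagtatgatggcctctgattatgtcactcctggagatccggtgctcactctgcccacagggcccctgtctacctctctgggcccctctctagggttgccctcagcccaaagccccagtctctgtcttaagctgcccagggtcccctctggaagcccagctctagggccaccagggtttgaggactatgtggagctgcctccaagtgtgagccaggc
Of all windows of 150 bases in the 2 transcripts, 3.58% of those of *Csf2rb* and 3.59% of those of *Csf2rb2* were found in the other gene. A read that lies wholly in such a stretch fits both genes and is left out by a counter that keeps unique alignments, so the levels of both beta chain genes carry this uncertainty.

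Promoters are shown for the 3 genes that were higher in Control *APP/PS1* samples. RefSeq promoters (on GRCm38.p6, an earlier build than that of the other positions given here) were matched for 4 of the 6 genes, and the 250 bases before the annotated start were searched on both strands for PU.1 (GAGGAAG), AP-1 (TGANTCA), NF-kB (GGGNNTTCC) and E-box (CACGTG) letters, with matches in capitals. The intervals are chr3:107760470-107760719 for *Csf1* and chr19:61228419-61228668 for *Csf2ra*, both on the minus strand, and chr4:126024409-126024658 on the plus strand for *Csf3r*.
*Csf1*: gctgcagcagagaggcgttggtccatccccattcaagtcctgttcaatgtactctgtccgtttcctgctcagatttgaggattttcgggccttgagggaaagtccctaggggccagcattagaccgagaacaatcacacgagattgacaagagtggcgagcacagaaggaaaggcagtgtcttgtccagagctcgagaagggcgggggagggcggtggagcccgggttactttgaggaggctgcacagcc
*Csf2ra*: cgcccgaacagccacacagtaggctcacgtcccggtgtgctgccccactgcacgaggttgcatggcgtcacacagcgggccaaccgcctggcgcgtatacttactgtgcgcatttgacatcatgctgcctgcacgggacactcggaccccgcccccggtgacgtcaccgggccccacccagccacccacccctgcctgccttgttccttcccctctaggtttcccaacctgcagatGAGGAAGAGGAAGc
*Csf3r*: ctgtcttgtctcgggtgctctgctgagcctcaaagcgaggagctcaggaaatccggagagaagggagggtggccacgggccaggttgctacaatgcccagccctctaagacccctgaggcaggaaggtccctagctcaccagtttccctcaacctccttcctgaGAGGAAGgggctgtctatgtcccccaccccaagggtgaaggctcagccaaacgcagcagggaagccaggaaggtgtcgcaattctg
The PU.1 letters occurred at 14 and 8 bases before the start of *Csf2ra*, sharing 1 base, at 86 bases before that of *Csf3r* and, on the other strand (CTTCCTC), at 168 bases before that of *Csf2rb2*, which was not called higher. None of the 4 motifs was in the *Csf1* window. Among all 32851 promoters of this length in the table, 10.6% held the PU.1 letters, 6.75% AP-1, 4.98% NF-kB and 6.02% the E-box.

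The 22 samples held 31128643 to 54872491 counts on genes each. The labelled cell type was checked with 10 microglial markers (among them *P2ry12* and *Tmem119*), whose summed level was 28973 to 46010 CPM (counts scaled to a common library size), against 21.3 to 523 CPM for 9 neutrophil markers and 9.61 to 84.2 CPM for 6 monocyte markers. The summed level was 364 to 3627 CPM for 6 oligodendrocyte markers and 99.8 to 710 CPM for 6 astrocyte markers. The oligodendrocyte median was 1288 CPM in Control WT, 601 in Control *APP/PS1*, 2119 in *Slc11a2*KD WT and 862 in *Slc11a2*KD *APP/PS1*. The astrocyte medians were 538, 419, 155 and 107 CPM in the same order. The part of these cells in the results was not tested. *Slc11a2* was at 35.1 ± 5.13 CPM in WT and 43.2 ± 3.93 in *APP/PS1* samples of the Control mice, and at 34.2 ± 4.75 and 56.5 ± 13.5 CPM in those of the *Slc11a2*KD mice (mean ± SD), so the mean total in samples labelled *Slc11a2*KD was within the spread of Control in WT and above Control in *APP/PS1*, and a count over the whole gene does not check a deletion of some exons. Control samples have library numbers 5 to 17 and *Slc11a2*KD samples 1 to 4 or 18 to 23, so knockdown and library number cannot be told apart. Samples also differed in a long-transcript score, the median log2 deviation of 2926 genes with transcripts of at least 5000 bases minus that of 870 genes with transcripts of at most 1000 bases. It was 0.38 to 1.08 in libraries 1 to 4, -0.25 to 0.67 in the Control samples used and -1.76 to -0.08 in libraries 18 to 23.

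Per kilobase of canonical transcript, *Csf1r* was by far the most abundant of the 6 genes, at 854 ± 115 CPM per kb in Control WT (SD, n = 6). *Csf3r* followed at 44.3 ± 2.95 and *Csf2ra* at 10.8 ± 4.29 CPM per kb. *Csf1* (8.55 ± 6.58), *Csf2rb* (7.42 ± 1.54) and *Csf2rb2* (4.26 ± 0.98) were lower, and the means of *Csf2ra*, *Csf2rb* and *Csf2rb2* lay within 1 SD of that of *Csf1*. In Control *APP/PS1*, *Csf1* stood at 49.6 ± 11.4 and *Csf2ra* at 34.2 ± 3.82 CPM per kb, below *Csf3r* at 71.9 ± 8.01 and far below *Csf1r* at 733 ± 103. Between the Control groups *Csf1* and *Csf2ra* changed places in the order, and the 4 other genes kept theirs. *Csf1r* lies at chr18:61229714-61266535 (plus strand, 21 exons) and shares 1461 exon bases with *Hmgxb3* on the other strand, which stood at 8.87 to 27.5 CPM, and whether the counting used strand is not given in the sources used here. *Csf1* lies at chr3:107648364-107667806 (minus, 9 exons), *Csf2ra* at chr19:61212395-61216892 (minus, 12 exons) and *Csf3r* at chr4:125918262-125938236 (plus, 17 exons), all on GRCm39. *Csf2rb* spans chr15:78209952-78238047 (plus) and *Csf2rb2* chr15:78166707-78189921 (minus), each with 14 exons.

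**Figure D1:**
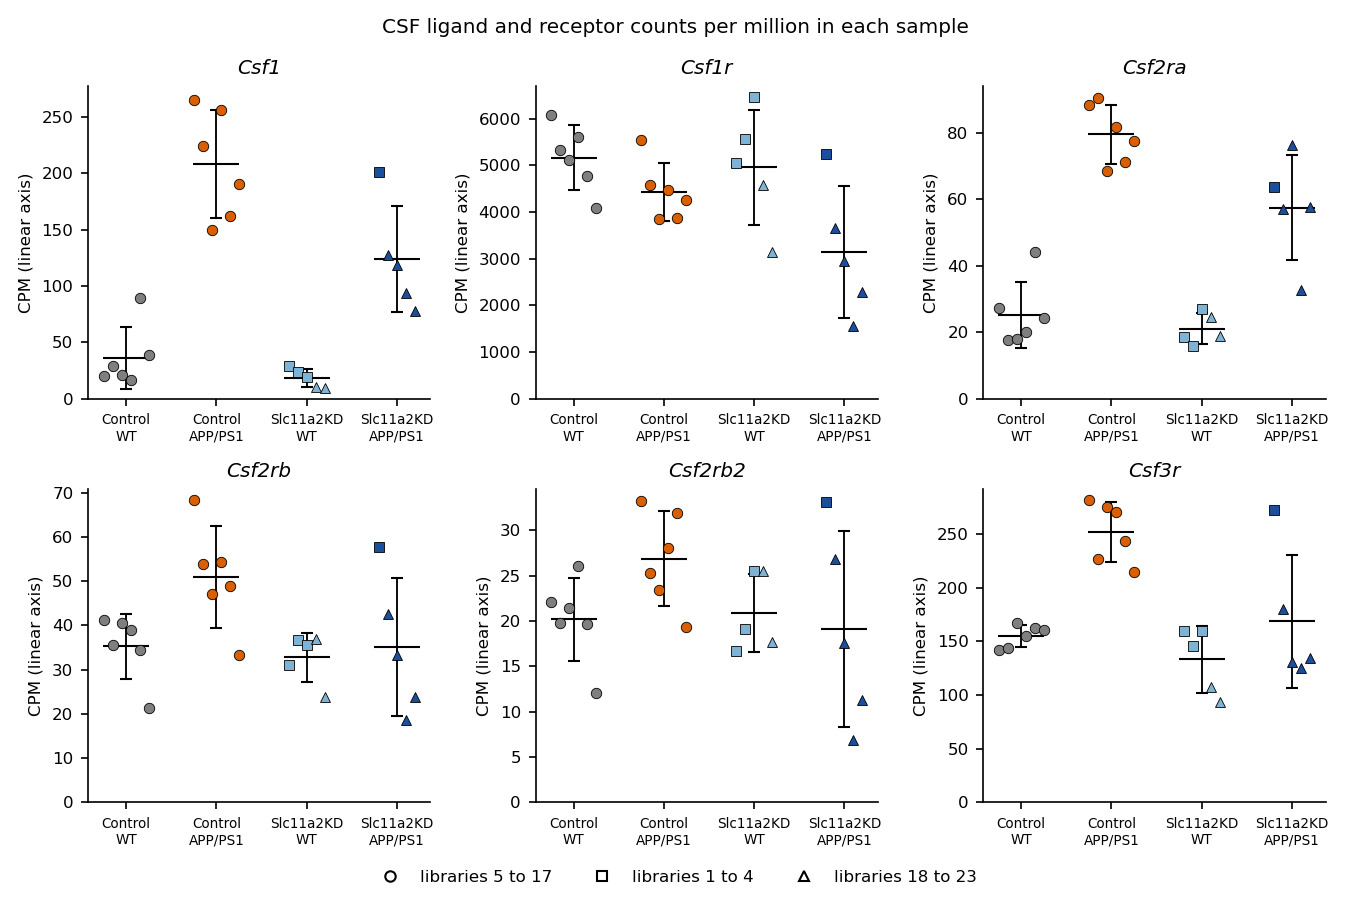
TMM-scaled CPM (linear axis from 0) of the 6 genes in each of 22 samples by group, with the mean and SD as bars and the library numbers by symbol. All 6 Control *APP/PS1* samples sit above all 6 Control WT samples for *Csf1* (150 to 265 against 16.3 to 89.8 CPM), *Csf2ra* and *Csf3r*, while *Csf1r* overlaps between all groups.

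The first comparison asked how the ligand and its receptors differed with the amyloid genotype in mice without knockdown. *Csf1*, *Csf2ra* and *Csf3r* were higher in Control *APP/PS1* than in Control WT, and *Csf1r*, *Csf2rb* and *Csf2rb2* did not pass the test. These 3 of 6 genes stand beside 5.99% of the 18759 genes tested that were called higher and 4.48% called lower (edgeR's quasi-likelihood test, Benjamini-Hochberg adjusted p under 0.05). The same 3 genes did not overlap between the groups, as did 5.33% of all genes tested in this direction.

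*Csf1*, the ligand, had the largest fold change of the 6 genes. It was between 16.3 and 89.8 CPM in Control WT (median 24.8, n = 6) and between 150 and 265 CPM in Control *APP/PS1* (median 207, n = 6). Every *APP/PS1* sample was above every WT sample, and the highest WT value belonged to library 14, with the next at 39.1 CPM. The log2 fold change was 2.53 ± 0.37 (SE, edgeR, adjusted p = 3.55e-05), or 3.05 without library 14, and the group means were 35.9 ± 27.6 and 208 ± 48.0 CPM (SD). *Il34*, which encodes the other CSF1R ligand, was near the limit of detection. It had 5 to 68 counts in Control WT and 1 to 29 in Control *APP/PS1*, with means of 1.11 ± 0.60 and 0.31 ± 0.19 CPM (log2 fold change -1.82 ± 0.82, edgeR, adjusted p = 0.167). In *Slc11a2*KD mice it was at 1.08 ± 0.58 CPM in WT and 0.34 ± 0.28 CPM in *APP/PS1* samples (log2 fold change -1.66 ± 0.89, edgeR, adjusted p = 0.203).

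*Csf2ra*, the ligand-binding chain of the CSF2 receptor, rose as well. It was between 17.6 and 44.2 CPM in Control WT (median 22.3) and between 68.6 and 90.4 CPM in Control *APP/PS1* (median 79.6). The groups did not overlap, and library 14 again gave the highest WT value. The log2 fold change was 1.66 ± 0.21 (SE, edgeR, adjusted p = 6.70e-06), and it stayed between 1.57 and 1.89 when any single sample was left out. The beta chains gave smaller differences that did not pass: *Csf2rb* went from 35.3 ± 7.35 to 50.9 ± 11.4 CPM (log2 fold change 0.53 ± 0.22, edgeR, adjusted p = 0.135), with 5 of 6 *APP/PS1* samples above every WT sample. *Csf2rb* was called with limma voom (adjusted p = 0.0490), with only the 2 groups in the fit (0.0337) and with the long-transcript score as a covariate (0.00157), of a range of 0.00157 to 0.338 over 11 alternatives. *Csf2rb2* went from 20.2 ± 4.63 to 26.9 ± 5.24 CPM (log2 fold change 0.41 ± 0.27, edgeR, adjusted p = 0.378), and it passed only with that covariate (0.0496, of a range up to 0.551). The fit with the covariate called 12.1% of all genes higher.

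*Csf3r*, the CSF3 receptor, was between 142 and 168 CPM in Control WT (median 158) and between 214 and 282 CPM in Control *APP/PS1* (median 257). It varied least of the 6 genes in Control WT relative to its mean, with an SD of 10.3 around a mean of 155 CPM, and no *APP/PS1* sample reached down to that range. The difference on the log2 scale was 0.70 ± 0.17 (SE, edgeR, adjusted p = 0.00658). *Csf3r* also marks neutrophils. The summed level of the 9 neutrophil markers was 89.9 to 335 CPM in Control WT (median 150) and 21.3 to 102 CPM in Control *APP/PS1* (median 56.4). Of these markers *S100a8*, *S100a9*, *Retnlg* and *Ngp* were called lower in Control *APP/PS1*. *Camp*, *Ltf*, *Mmp8*, *Cxcr2* and *Ly6g* were not called, and *Ly6g* was at 0 in at least 1 sample. The part of neutrophils in the *Csf3r* values was not tested. Bulk RNA cannot tell a change in the number of cells of a type from a change in RNA per cell.

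*Csf1r* itself was between 4077 and 6085 CPM in Control WT (median 5222) and between 3854 and 5548 CPM in Control *APP/PS1* (median 4368). The ranges overlapped, with 2 of 6 *APP/PS1* samples below every WT sample. The log2 fold change was -0.22 ± 0.21 (SE, edgeR, adjusted p = 0.588), and it stayed between -0.32 and -0.03 over 11 alternatives. Border macrophages also express *Csf1r*, and the summed level of 8 of their markers was 232 to 488 CPM in Control WT and 96.0 to 214 CPM in Control *APP/PS1*. The microglial markers were lower as well, with a summed level of 37463 to 43066 CPM in Control WT and 28973 to 33624 CPM in Control *APP/PS1*, and *P2ry12* (-0.98) and *Tmem119* (-1.08) were called lower. The part of these cell types in the values of the 6 genes was not tested. The summed level of 8 choroid plexus markers was 1934 and 999 CPM in Control WT libraries 12 and 15 and at most 5.41 CPM in the 10 other Control samples, and *Csf1*, *Csf2ra* and *Csf3r* were also called higher without these 2 libraries.

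**Figure D2:**
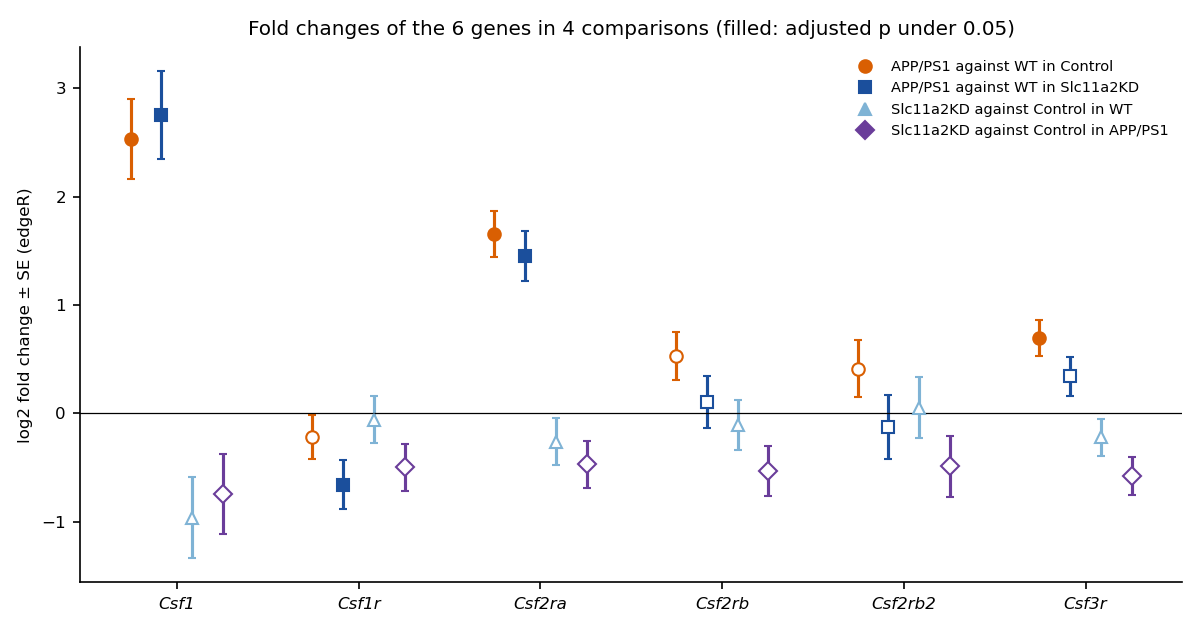
log2 fold change with its SE from edgeR for the 6 genes in 4 comparisons, filled where the adjusted p is under 0.05. *Csf1* and *Csf2ra* lie above 1 for *APP/PS1* against WT both in Control (2.53 and 1.66) and in *Slc11a2*KD (2.75 and 1.45), whereas no gene is filled for *Slc11a2*KD against Control.

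The same genotype comparison was then made among *Slc11a2*KD samples, which share no sample with the first. *Csf1* and *Csf2ra* were again higher in *APP/PS1*, while *Csf1r* was lower. Beside these 2 higher and 1 lower of 6 genes, 9.77% of all genes tested were called higher and 6.41% lower. *Csf1* and *Csf2ra* did not overlap between the groups, as did 4.18% of all genes in this direction.

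*Csf1* was at 28.7, 23.7, 19.6, 10.2 and 9.77 CPM in the 5 *Slc11a2*KD WT samples (libraries 1, 2, 3, 19 and 22) and at 201, 128, 119, 94.3 and 78.0 CPM in the 5 *Slc11a2*KD *APP/PS1* samples (libraries 4, 18, 20, 21 and 23). Within each genotype the libraries numbered 1 to 4 held the higher values, and the genotypes did not overlap. *APP/PS1* exceeded WT by a log2 fold change of 2.75 ± 0.41 (SE, edgeR, adjusted p = 5.57e-05). Within libraries 18 to 23 alone, *Csf1* averaged 10.0 CPM in 2 WT and 105 CPM in 4 *APP/PS1* samples, a ratio of 10.5 (exact permutation test, two-sided, p = 0.0667, the smallest that 4 against 2 samples can give). *Csf2ra* was at 18.7, 15.9, 27.0, 24.8 and 18.997 CPM in the WT and at 63.8, 57.2, 76.4, 32.9 and 57.6 CPM in the *APP/PS1* libraries in the same order. Only library 21 came near the WT values. The log2 fold change was 1.45 ± 0.23 (SE, edgeR, adjusted p = 1.32e-04), and within libraries 18 to 23 the ratio of means was 2.56 (exact permutation test, p = 0.0667).

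*Csf3r* was at 160, 145, 160, 107 and 93.6 CPM in *Slc11a2*KD WT and at 273, 181, 131, 125 and 134 CPM in *Slc11a2*KD *APP/PS1*. Libraries 4 and 18 were above every WT sample and the other 3 were not, but within libraries 18 to 23 all 4 *APP/PS1* samples were above both WT samples (ratio of means 1.42, exact permutation test, p = 0.133). The difference did not pass (log2 fold change 0.34 ± 0.18, edgeR, adjusted p = 0.199). It passed with a term for library numbers 18 to 23 (0.62, adjusted p = 8.01e-04) and with the long-transcript score as a covariate (0.79, adjusted p = 1.04e-04), and the adjusted p ranged from 1.04e-04 to 0.502 over 11 alternatives. *Csf2rb* averaged 32.7 ± 5.53 and 35.2 ± 15.6 CPM, and *Csf2rb2* averaged 20.9 ± 4.30 and 19.1 ± 10.8 CPM (SD, n = 5 each). Neither beta chain passed (log2 fold change 0.10 ± 0.24 and -0.13 ± 0.29, edgeR, adjusted p = 0.826 for both). *Csf2rb* passed only with the long-transcript score as a covariate (0.60, adjusted p = 0.0433, of a range up to 0.951).

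*Csf1r* was at 5045, 5556, 6455, 4590 and 3149 CPM in *Slc11a2*KD WT and at 5237, 3667, 2956, 1559 and 2289 CPM in *Slc11a2*KD *APP/PS1*. Libraries 20, 21 and 23 were below every WT sample, and library 4 was among the WT values. The log2 fold change of -0.66 ± 0.23 lay close to the threshold (SE, edgeR, adjusted p = 0.0483). The call was lost without any 1 of 8 of the 10 samples (libraries 1, 2, 3, 18, 19, 20, 21 or 23), with values from -0.92 to -0.49 and adjusted p from 0.00213 to 0.140 over all 10. *Csf1r* had its lowest level of all samples in library 21, which had the lowest long-transcript score (-1.76), and its highest level in library 3, which had the highest score (1.08). With the score as a covariate the log2 fold change was -0.05 (edgeR, adjusted p = 0.855). The call was also lost, at adjusted p from 0.0576 to 0.223, with library 10 kept, without libraries 12 and 15, without libraries 1 to 4, with a term for library numbers 18 to 23 and with only the 2 groups in the fit, so in 6 of 11 alternatives. The border macrophage markers did not overlap either, at 314 to 542 CPM in *Slc11a2*KD WT and 145 to 232 CPM in *Slc11a2*KD *APP/PS1*, and their part was not tested. The canonical transcript of *Csf1r* has 6049 bases, against 4764 for *Csf2rb*, 4740 for *Csf2rb2*, 4197 for *Csf1*, 3508 for *Csf3r* and 2330 for *Csf2ra*.

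**Figure D3:**
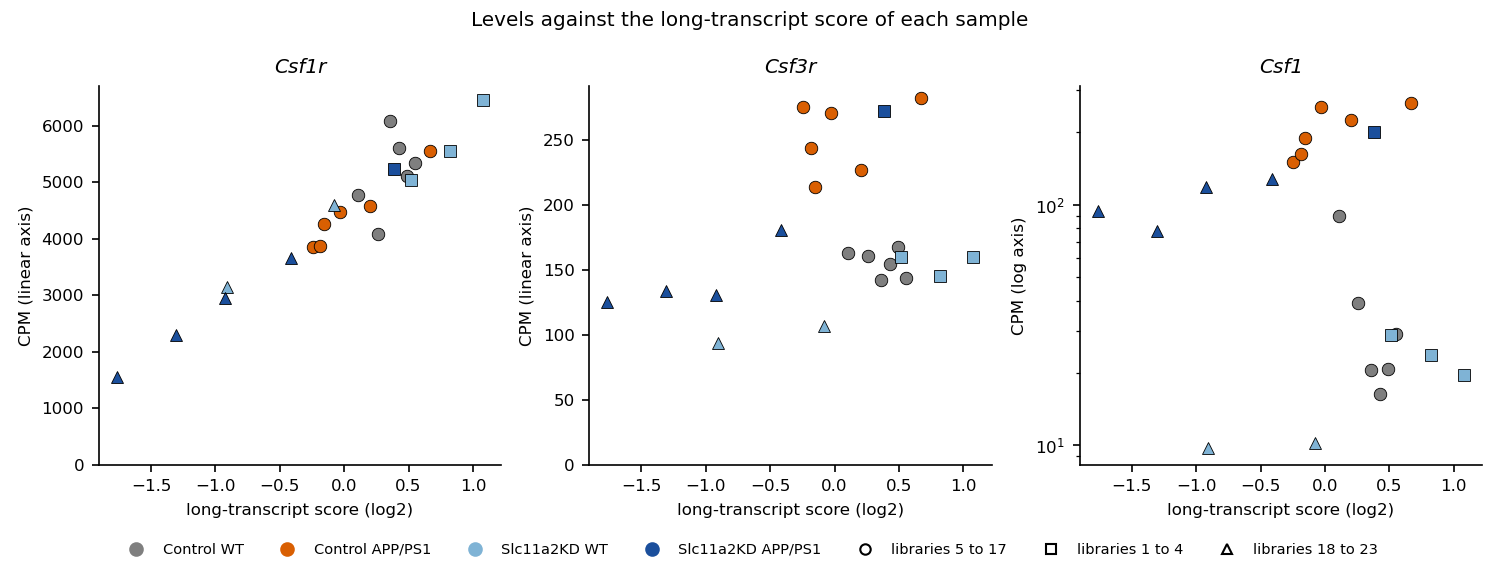
CPM of *Csf1r* and *Csf3r* (linear axes) and *Csf1* (log axis) against the long-transcript score of each of 22 samples, coloured by group and with library numbers by symbol. *Csf1r* spans 1559 CPM in the sample with the lowest score (-1.76) to 6455 CPM in that with the highest (1.08), and *Csf1* lies at 78.0 CPM or above in every *APP/PS1* sample and at 39.1 CPM or below in every WT sample other than library 14 (89.8).

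Knockdown was then compared with Control within each genotype. Among WT samples no member passed, and 0 of all 18759 genes tested did (0%), while 5.92% had an unadjusted p under 0.05 (edgeR, 1110 genes, with 6 higher and 4 lower genes called by DESeq2 and 1 by limma voom). *Csf1* averaged 18.4 ± 8.32 CPM in *Slc11a2*KD WT against 35.9 ± 27.6 in Control WT (log2 fold change -0.96 ± 0.37, edgeR, adjusted p = 0.715). Libraries 19 and 22 were below every Control WT sample, and the fold change was -0.45 without Control WT library 14 and -1.84 without libraries 1 to 4 (edgeR, adjusted p = 0.0933, of a range of 0.0933 to 1.00 over the alternatives). The other 5 members had log2 fold changes from -0.26 (*Csf2ra*) to 0.05 (*Csf2rb2*), each with an adjusted p of 1.

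Among *APP/PS1* samples all 6 members had lower means in *Slc11a2*KD than in Control, but none passed the test. No gene of 18759 was called (0%), 20.6% had an unadjusted p under 0.05 (edgeR, 3862 genes), and DESeq2 called 449 higher and 131 lower genes where limma voom called 0 and 2. Of the members, *Csf1r*, *Csf2ra*, *Csf2rb* and *Csf3r* had an unadjusted p under 0.05 in the lower direction, as did 9.74% of all genes tested. The log2 fold changes were -0.75 ± 0.37 for *Csf1*, -0.50 ± 0.22 for *Csf1r*, -0.47 ± 0.22 for *Csf2ra*, -0.53 ± 0.23 for *Csf2rb*, -0.49 ± 0.28 for *Csf2rb2* and -0.58 ± 0.17 for *Csf3r* (SE, edgeR, adjusted p from 0.205 to 0.321).

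The level of *Csf1* was also compared by itself, because the study had reported it as lower in *Slc11a2*KD between these same groups. The permutation test below uses the same samples and is not independent of that report. In the edgeR fit *Csf1* had no unadjusted p under 0.05 in this comparison. Its mean was 124 ± 47.4 CPM in *Slc11a2*KD *APP/PS1* (n = 5) against 208 ± 48.0 CPM in Control *APP/PS1* (n = 6), a difference of -84.1 CPM (exact permutation test of this 1 gene, two-sided, p = 0.0238, unadjusted). The 4 samples of libraries 18 to 23, at 78.0 to 128 CPM, were below every Control *APP/PS1* sample, and library 4, at 201 CPM, was within their range. Leaving out library 21 or 23 gave p = 0.0524 (exact permutation test), and keeping library 10 gave a difference of -64.8 CPM (p = 0.0909). Divided by *Csf1r* of the same sample, the 2 groups differed by -0.00502 (p = 0.357 by the same exact permutation).

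Most receptor genes also split by library number in *Slc11a2*KD *APP/PS1*, where library 4 was above all of libraries 18 to 23. There *Csf1r* was at 5237 CPM in library 4 and averaged 2618 CPM in the others, and *Csf3r* was at 273 and averaged 143 CPM. *Csf2rb* was at 57.8 against 18.5 to 42.6 CPM and *Csf2rb2* at 33.1 against 6.85 to 26.8 CPM, while *Csf2ra*, at 63.8 against 32.9 to 76.4 CPM, overlapped. In *Slc11a2*KD WT, *Csf1r* averaged 5685 CPM in libraries 1 to 3 and 3869 CPM in libraries 19 and 22, and *Csf3r* averaged 155 and 100.4 CPM. In WT the other receptor genes overlapped between library numbers, with means of 20.5 and 21.9 CPM for *Csf2ra*, 34.4 and 30.3 for *Csf2rb* and 20.5 and 21.6 for *Csf2rb2*. Without library 4, *Csf1r* (-0.76, adjusted p = 0.0209), *Csf2rb* (-0.79, 0.0241) and *Csf3r* (-0.82, 0.0202) were called lower by edgeR, in a fit that called 9.07% of all genes lower. Without libraries 1 to 4 *Csf1* was called too (-1.01, edgeR, adjusted p = 0.0470), and so were 12.7% of all genes in this direction. With a term for library numbers 18 to 23, estimated within the *Slc11a2*KD samples of both genotypes, the values were 0.11 for *Csf1*, 0.03 for *Csf1r*, -0.45 for *Csf2ra*, -0.17 for *Csf2rb*, -0.20 for *Csf2rb2* and -0.03 for *Csf3r*. With the long-transcript score as a covariate they were -0.37, -0.07, -0.37, -0.15, -0.16 and -0.27 in the same order, and no member was called under either fit. Markers of another tissue moved with the library numbers: the summed level of 8 choroid plexus markers was 1.30 to 5.41 CPM in Control *APP/PS1*, 2.30 CPM in library 4 and 87.1 to 484 CPM in the 4 other *Slc11a2*KD *APP/PS1* samples. Their part in the results was not tested.

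**Figure D4:**
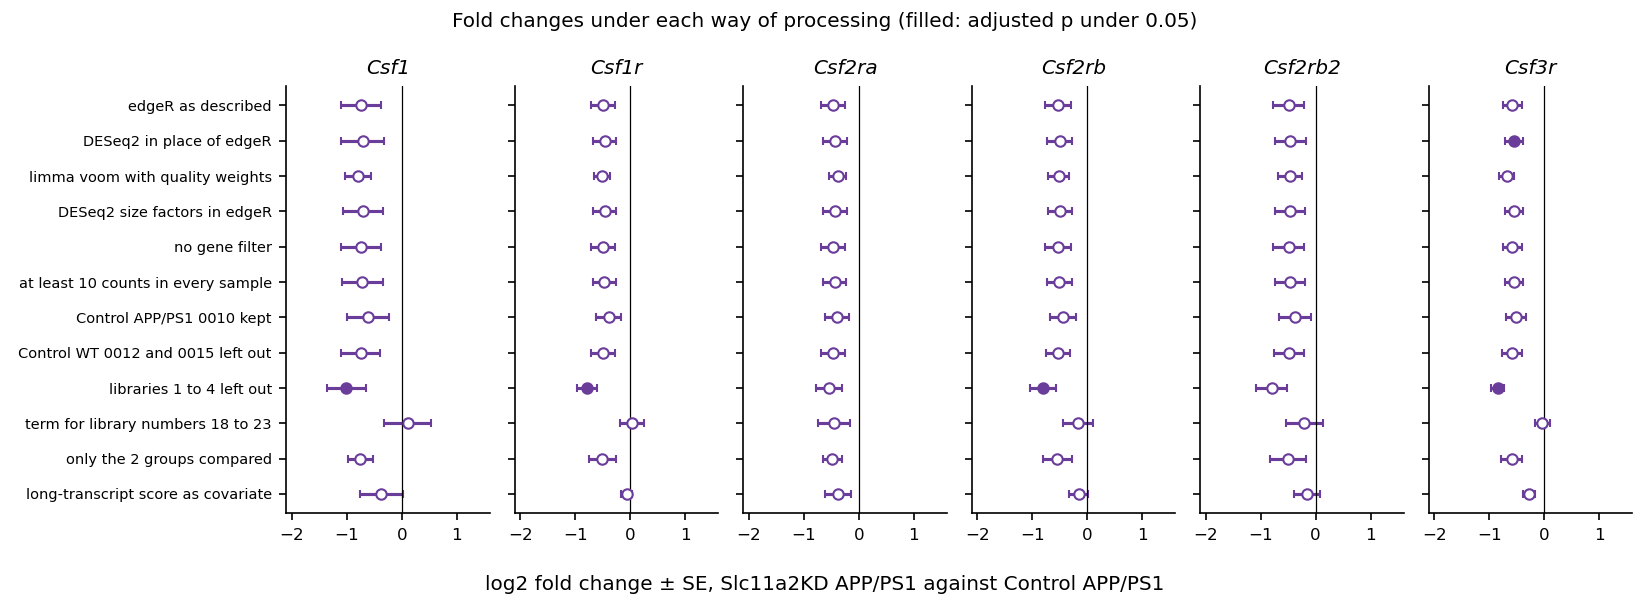
log2 fold change with its SE of each gene in *Slc11a2*KD *APP/PS1* against Control *APP/PS1* under 12 ways of processing, filled where the adjusted p is under 0.05. The points lie below 0 except for *Csf1* (0.11) and *Csf1r* (0.03) with a term for library numbers 18 to 23, and 4 genes are filled when libraries 1 to 4 are left out.

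The interaction asked whether the effect of *APP/PS1* differed with knockdown. No member passed, with interaction log2 values from -0.54 ± 0.39 for *Csf2rb2* to 0.22 ± 0.51 for *Csf1* (SE, edgeR, adjusted p from 0.570 to 0.903). Over all genes 0 passed (0%) and 9.08% had an unadjusted p under 0.05 (1703 genes), with 18 and 7 called by DESeq2 and 1 by limma voom.

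The order of group means differed from gene to gene. *Csf1* and *Csf2ra* were highest in Control *APP/PS1*, then in *Slc11a2*KD *APP/PS1*, Control WT and *Slc11a2*KD WT, and the 2 WT groups did not differ beyond their spread. *Csf3r* had the same order, but the gap of 13.3 CPM between *Slc11a2*KD *APP/PS1* and Control WT was within 1 SD (62.2), as was that between the 2 WT groups. *Csf2rb* and *Csf2rb2* were highest in Control *APP/PS1*, and the 3 other groups lay within 1 SD of one another. *Csf1r* ran from Control WT (5165 ± 694 CPM) through *Slc11a2*KD WT (4959 ± 1226) and Control *APP/PS1* (4432 ± 624) to *Slc11a2*KD *APP/PS1* (3142 ± 1408), and no neighbours in this order differed by more than the larger SD.

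The balance of the 2 beta chains was read from the share of *Csf2rb2* in the summed counts of both genes, which does not depend on scaling between samples. The share was 36.3 ± 1.97% in WT and 34.7 ± 2.86% in *APP/PS1* among Control samples, and 39.0 ± 4.00% and 33.8 ± 4.48% among *Slc11a2*KD samples (SD). The largest difference, -5.19 percentage points for *APP/PS1* against WT in *Slc11a2*KD, had p = 0.0794 (exact permutation test, two-sided, 0.317 adjusted over 4 comparisons). The other 3 comparisons gave differences between -1.57 and 2.67 percentage points (exact permutation test, p from 0.165 to 0.695). The range over single samples was 27.0% to 42.7%, and *Csf2rb* exceeded *Csf2rb2* in all 22 samples.

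Other genes of the pathway were read from a list of 58 genes, of which 53 were in the table and all 53 were tested. In Control *APP/PS1* against Control WT, 6 were called higher and 2 lower (5.99% and 4.48% over all genes), and the list's median log2 fold change was 0.04 against -0.02 over all genes. These counts were 13 and 4 with the long-transcript score as a covariate (2273 and 1564 over all genes), and 10 and 6 with limma voom (2079 and 1342) or with only the 2 groups in the fit (1974 and 1267). They fell to 4 and 1 without libraries 12 and 15 (785 and 497 of 18562 genes) and, for example, to 5 and 1 without library 5 (946 and 637 of 18712). In *Slc11a2*KD *APP/PS1* against *Slc11a2*KD WT, 8 were called higher and 10 lower (9.77% and 6.41% over all genes), with a median of -0.21 against -0.07 over all genes. Both counts moved with the samples and the fit, as did those over all genes. The lower calls were 21 without library 4 (2352 of 18700 genes), 18 without library 22 (1960 of 18681), 5 without library 3 (756 of 18663) and 15 with DESeq2 (1766 of 18759) or limma voom (1947). They were 3 with the long-transcript score as a covariate (594 of all genes, median of the list 0.03) and 1 with only the 2 groups in the fit (303 of 17060). Without libraries 1 to 4, 2 were called higher (478 of 18366 genes) and 4 lower (383). Knockdown against Control called none of the 53 in either genotype (edgeR), with 1 at an unadjusted p under 0.05 in WT and 14 in *APP/PS1* (5.92% and 20.6% over all genes). In *APP/PS1*, however, 17 were called lower without library 4 (9.07% over all genes), and 1 higher and 21 lower without libraries 1 to 4 (1691 genes higher, and 12.7% lower).

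The values in this paragraph and the next compare *APP/PS1* with WT, within Control or within *Slc11a2*KD samples. Among the other receptors of the family, *Il3ra*, the ligand-binding chain that pairs with the beta chains for interleukin 3, rose by 2.17 ± 0.24 on the log2 scale in Control (SE, edgeR, adjusted p = 9.83e-07) and by 1.24 ± 0.26 in *Slc11a2*KD (adjusted p = 0.00211). *Flt3*, a receptor tyrosine kinase related to CSF1R, was called lower in *APP/PS1* within *Slc11a2*KD (-2.89 ± 0.97, edgeR, adjusted p = 0.0430) at a mean of only 0.72 CPM over all samples, and *Kit* was not called. Among 18 adaptors and kinases downstream of CSF1R, the Src family kinases *Fgr* (1.44 ± 0.31) and *Fyn* (0.79 ± 0.22) were higher in Control (edgeR, adjusted p = 0.00284 and 0.0234). In *Slc11a2*KD, *Fgr* (1.46), *Fyn* (0.98), *Mapk3* (0.31) and *Tyrobp* (0.56), which encodes the adaptor DAP12, were higher, whereas *Pik3r1* (-1.28), the regulatory subunit of PI3-kinase, and the Src family kinase *Lyn* (-0.94) were lower.

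Of the 8 genes of the JAK and STAT arm, none was called in either genotype comparison, with medians of 0.04 in Control and -0.46 in *Slc11a2*KD, where 5 had an unadjusted p under 0.05, as did 31.7% of all genes tested. Of 14 inhibitors and shedding proteases, *Ptpn6*, which encodes the phosphatase SHP-1, was higher (0.53 ± 0.09, edgeR, adjusted p = 2.45e-04) and the docking protein gene *Dok3* lower (-1.26 ± 0.20, adjusted p = 1.51e-04) in Control. The same 2 genes were called in the same directions in *Slc11a2*KD (0.49 and -0.86), together with lower *Cblb*, *Spred1* and *Adam10* (-0.73, -0.38 and -0.64). Of 8 transcription factors known at the *Csf1r* locus, *Cebpa* (0.42 ± 0.09) and *Irf8* (0.36 ± 0.08) were higher in Control (edgeR, adjusted p = 0.00352 and 0.0065). Both were higher in *Slc11a2*KD too (0.31 and 0.36), where *Fli1* (-0.61) and *Elf1* (-0.81) were lower, and *Spi1*, which encodes PU.1, was at -0.15 in Control and -0.10 in *Slc11a2*KD and was not called.

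**Figure D5:**
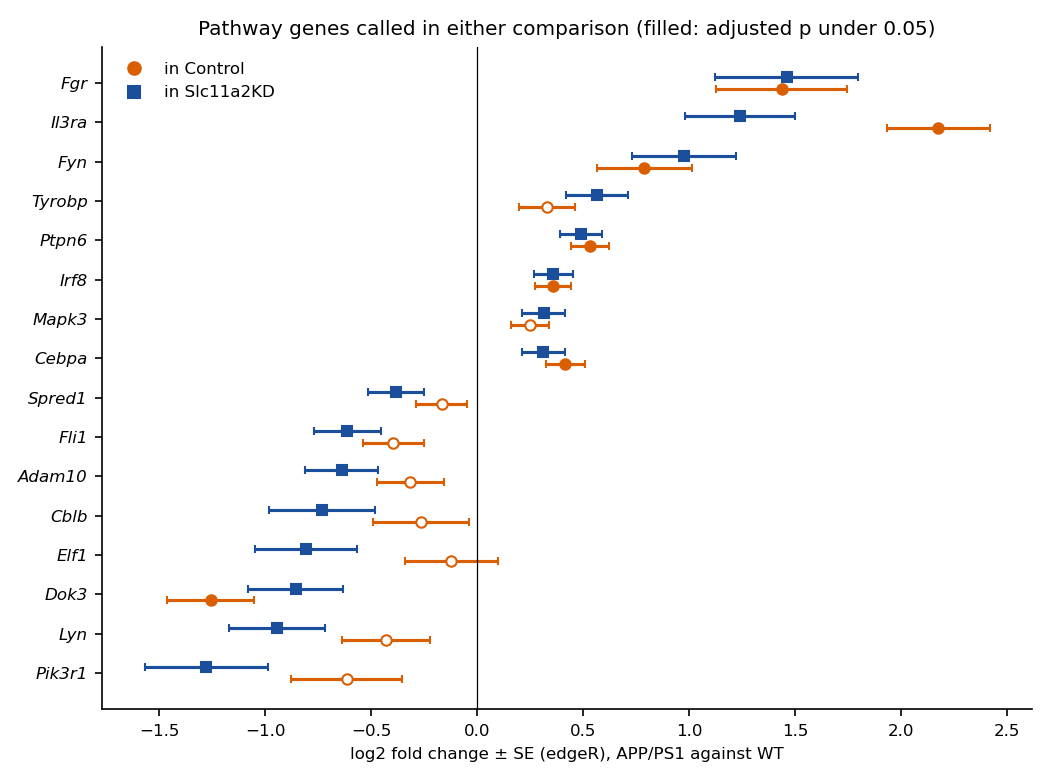
log2 fold change with its SE, *APP/PS1* against WT, of 16 pathway genes with a mean of at least 1 CPM that were called in Control (circles) or in *Slc11a2*KD (squares), filled where the adjusted p is under 0.05. *Fgr*, *Il3ra* and *Fyn* lie highest in both, and *Pik3r1* (-1.28) and *Lyn* (-0.94) are filled in *Slc11a2*KD.

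The genes whose pattern over the 22 samples lay nearest to each member were ranked among 11882 genes with a mean of at least 1 CPM, by the root mean square (RMS) difference of log2 CPM centred on Control WT. Nearest to *Csf1* were *Acaca* (0.62), *Itgax* (0.63) and *St8sia6* (0.64), against a median RMS difference of 1.91 over all genes ranked. *Itgax* encodes CD11c, an integrin subunit, and *Acaca* encodes acetyl-CoA carboxylase. Nearest to *Csf2ra* were *Sdc3* (0.33), *Ctsz* (0.34) and *Mical1* (0.34), with a median of 1.22. *Csf1r* was matched most closely, by *Kpnb1* (0.10), *Pik3ap1* (0.12) and *Ttyh3* (0.12), with a median of 0.70. *Csf3r* lay nearest to *Ctsa* (0.19), *Clint1* (0.20) and *Hsp90ab1* (0.21), *Csf2rb* to *Zmiz2* (0.19) and *Prkcsh* (0.20), and *Csf2rb2* to *Zmiz2* (0.21), *Atp13a2* (0.24) and *Furin* (0.25). *Zmiz2* was the 1 gene named for more than 1 member, and it was near both beta chains.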

How the data were processed

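CD11b+ hippocampal cells of 23 samples were sequenced as poly(A) RNA. The authors trimmed reads with Trim Galore 0.6.7, aligned them with STAR to mm39 and deposited gene counts, which were not normalized. They also deposited a signal, the counts of each sample divided by a DESeq2 1.36.0 size factor, used here for 1 alternative only. Samples were grouped by their labels. The 18759 genes that reached 5 counts in 3 or more of 22 samples were scaled by TMM and tested across all genes with edgeR 4.0.16 (quasi-likelihood, 4 groups in 1 fit, R 4.3.3), with Benjamini-Hochberg adjustment over all genes tested and a threshold of 0.05. CPM are TMM-scaled. Single values were compared by exact permutation of samples. Alternatives used DESeq2 1.42.0, limma 3.58.1, other scaling, filters and samples. The fit was tested on simulated data. Named pathway genes were *Il34* and, per comparison and direction, up to 4 genes called with the largest change and a mean of at least 1 CPM; others called are named because the counts are small, and were chosen after their values were seen, as was *Spi1*. Some genes that the rules name are not reported here, though counts include them. The members and lists were chosen with earlier results of these data known. Sequences came from GENCODE M39 and RefSeq, aligned with Biopython 1.88. Depth was 31128643 to 54872491 counts per sample.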

Additional observations from a re-analysis of the deposited data

Results flagged for a closer look

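Of 28 sets of samples examined for a value far from the others of its group (6 genes and the *Csf2rb2* share in 4 groups), 4 held one, and chance alone gives about 1 in 20 such sets. All 4 were in Control WT. Library 14 stood out with *Csf1* at 89.8 CPM, where the next sample was at 39.1, and with *Csf2ra* at 44.2 CPM, where the next was at 27.3. Library 14 held 7.11 CPM of *Prnp*, within the WT range of 1.74 to 12.3 and below the *APP/PS1* range of 14.1 to 25.0 CPM. It also had the highest summed level of neutrophil markers among the Control samples, 335 CPM. Why *Csf1* and *Csf2ra* stood out in library 14 was not tested. Library 15 stood out with *Csf2rb* at 21.4 CPM, where the next sample was at 34.4. Library 12 had a *Csf2rb2* share of 40.1%, where the next was at 36.3%.

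Library 10, the Control *APP/PS1* sample that enters no comparison, held *Csf2ra* at 52.4 CPM, above the highest Control WT value of 43.8 CPM when all 23 samples are scaled together. Its long-transcript score on that scale was -1.52.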

How the results depend on the processing

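No paired analysis was made because the labels give no litter, cage or other pairing between groups. The calls of *Csf1* and *Csf2ra* for *APP/PS1* against WT held in both Control and *Slc11a2*KD under all 11 alternatives and all samples left out in turn, as did that of *Csf3r* in Control. With the long-transcript score as a covariate, chosen after seeing the data, 5 members were called for *APP/PS1* against WT in Control. For *Slc11a2*KD against Control in *APP/PS1*, DESeq2 called 1 member (*Csf3r*, among 449 genes higher and 131 lower, and gave *Csf2rb2* no adjusted p), the fit without libraries 1 to 4 called 4 (with 1691 genes higher and 2329 lower of 18366), and the fits that leave out 1 sample called 0 to 3. The 3 came without library 4, where 1373 genes were called higher and 1696 lower of 18700, and without any other single sample 0 genes were. The *Csf1* difference between those groups was -64.8 CPM with library 10 kept, -0.00502 as a ratio to *Csf1r* (added after seeing the data) and -103 to -72.7 CPM with samples left out. Values that changed sign were small and uncalled, and the cause was not tested. For *APP/PS1* against WT in *Slc11a2*KD they were *Csf2rb* (-0.066 without libraries 1 to 4, and -0.15 to 0.26 without single samples) and *Csf2rb2* (0.30 with the score, and -0.42 to 0.085 without single samples). For *Slc11a2*KD against Control in WT, a term for libraries 18 to 23 gave *Csf1r* 0.21, *Csf2rb* 0.10 and *Csf3r* 0.049, and limma voom gave *Csf2rb2* -0.035. Without single samples *Csf1r* was -0.17 to 0.054 and *Csf2rb2* -0.060 to 0.14. In *APP/PS1* that term gave *Csf1* 0.11 and *Csf1r* 0.035. The *Csf1* interaction was -0.33 with limma voom and -0.30 to 0.44 without single samples. The *Csf2rb2* share difference was -6.40 to -3.49 percentage points for *APP/PS1* against WT in *Slc11a2*KD (-6.34 without library 2, exact permutation p = 0.0476) and -2.16 to 0.75 for *Slc11a2*KD against Control in *APP/PS1*, with 0.000261 without library 16 and 0.75 without library 21. Depth limits *Il34* (0 to 70 counts), not the 6 members (at least 267 counts).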

Other observations

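Library 10, scaled with all 23 samples, held *Csf1* at 76.3 CPM, within the Control WT range of 16.1 to 89.0 and below the 6 other Control *APP/PS1* samples, of which the lowest held 149 CPM. Its *Csf1r* level of 2316 CPM was below every other Control sample, of which the lowest held 3820 CPM. *Csf3r* was at 165 CPM, within the Control WT range of 141 to 166, and *Csf2rb* (28.8 CPM) and *Csf2rb2* (13.1 CPM) were also within the Control WT ranges.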
